A study of Mus musculus with 9 samples.

Results

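This comparison set mouse AML12 hepatocytes that had received free fatty acids and then fatty acids together with sinomenine against untreated cells of the same line. It covered every gene with a mean of at least 1 FPKM (fragments scaled by transcript length and by the library's read total) over the 6 libraries concerned, which left 11671 of the 30350 genes in the deposited table. The 6 libraries are 3 of the untreated group, called NC here, and 3 of the treated group, called FFA_SIN. The series holds 9 libraries in 3 groups, and the group given fatty acids alone was not used. FFA_SIN cells were given fatty acids for 24 h and then fatty acids with 200 µM sinomenine for a further 48 h in DMEM/F12 medium. NC cells carry the label of that medium alone. The sources used here do not name the fatty acids, their dose, their carrier or the culture time of the NC cells. A difference between the groups therefore holds the fatty acids, sinomenine, any carrier and any difference in culture time together, and these cannot be told apart in this comparison.

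AML12 is an immortal line grown from hepatocytes of a mouse that carried a human transforming growth factor alpha transgene under a metallothionein promoter, and every library here comes from that 1 line. Sinomenine is an alkaloid of the vine Sinomenium acutum that is used against rheumatoid arthritis. Hepatocytes take up fatty acids, bind them to coenzyme A and then burn them in mitochondria and peroxisomes, esterify them into lipid droplets or export them in lipoproteins. Fatty acids are also ligands of PPAR nuclear receptors, which switch on oxidation and droplet genes, whereas SREBP factors switch on sterol and fatty acid synthesis when cellular sterol is low. ATF4 is the transcription factor made during amino acid shortage or endoplasmic reticulum stress, and TFEB and its relatives drive lysosomal genes.

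The read total that scales the FPKM was 57912281 to 71391844 per library, recovered from the FPKM steps of genes with few reads. Any reads outside that total cannot be seen in the deposited values. Mitochondrial genes took 3.92% to 4.06% of that total in NC and 4.47% to 4.85% in FFA_SIN. The first principal component of log2(FPKM + 1) held 79.2% of the variance and separated the groups, with NC between -17.7 and -16.9 and FFA_SIN between 16.8 and 17.5. No library stood apart from its group, and no pair of libraries was identical. Of the hepatocyte markers, Alb (196 to 559 FPKM over the 6 libraries), Ttr (419 to 707 FPKM), Trf (474 to 1022 FPKM) and Hnf4a (103 to 132 FPKM) were present, whereas Ahsg, Asgr1, Cyp2e1 and Cyp3a11 reached at most 0.164 FPKM. The bile duct markers Krt19 (966 to 1387 FPKM), Spp1 (399 to 512 FPKM) and Krt7 (53.3 to 114 FPKM) were high too, with Epcam and Cftr at or near 0. The 6 endothelial markers reached at most 0.374 FPKM each. The 9 stellate cell and fibroblast markers summed to 9.96 to 10.3 FPKM in NC and 3.25 to 3.37 FPKM in FFA_SIN, nearly all of it from the muscle filament gene Des, with the other 8 at or below 0.387 FPKM. The macrophage markers summed to 694 to 711 FPKM in NC and 452 to 473 FPKM in FFA_SIN, almost wholly from the lipopolysaccharide receptor gene Cd14, with Csf1r and Ptprc at or below 0.150 FPKM. Hepatocyte markers summed to 1243 to 1264 FPKM in NC and 2389.8 to 2413 FPKM in FFA_SIN, mostly from Alb, Trf and Ttr. In the test described below, 6 of the 9 tested hepatocyte markers were called higher in FFA_SIN, while Apoa1 and Hnf4a were called lower. Bile duct markers summed to 1881 to 1954 FPKM in NC and 1589 to 1608 FPKM in FFA_SIN, mostly from Krt19 and Spp1. Among the 6 bile duct markers tested, 2 were called higher and 3 lower. The part of these marker shifts in the other results was not tested.

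Differences were tested on log2(FPKM + 1) with limma, and a gene was called at a Benjamini-Hochberg adjusted p below 0.05 over all 11671 genes. The added 1 FPKM makes fitted differences of genes with low values smaller than their ratio of means. Calls were many and mostly small. Called genes numbered 5863, or 50.2% of those tested, with 2843 higher in FFA_SIN (24.4%) and 3020 lower (25.9%). Of the called genes, 5267 (89.8%) differed by less than 1.5-fold, and the median size of a called difference was 0.22 on the log2 scale. A fitted difference of at least 2-fold was reached by 195 called genes (1.67% of those tested), 62 of them higher (0.531%) and 133 lower (1.14%). At least 4-fold changes were found for 7 higher and 27 lower genes. The libraries of the groups did not overlap for 7015 genes (60.1%). The share called grew with expression, from 37.4% of genes at 1 to 5 FPKM to 70.8% of genes at 100 FPKM or more. Genes close to the filter included Zfp953 (1.0001 FPKM), Zfp248 (1.0006 FPKM) and Kctd1 (1.0017 FPKM) inside it, and Gm13199 (0.9991 FPKM), Tmem260 (0.9983 FPKM) and Trp53rkb (0.9977 FPKM) outside. Nothing in the labels says that the 3 libraries of a group came from separate cultures. The p-values therefore speak of library-to-library spread alone, and that spread may be technical. An exact permutation test of 3 libraries against 3 could not give a p below 0.1 for a single gene.

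**Figure D1:**
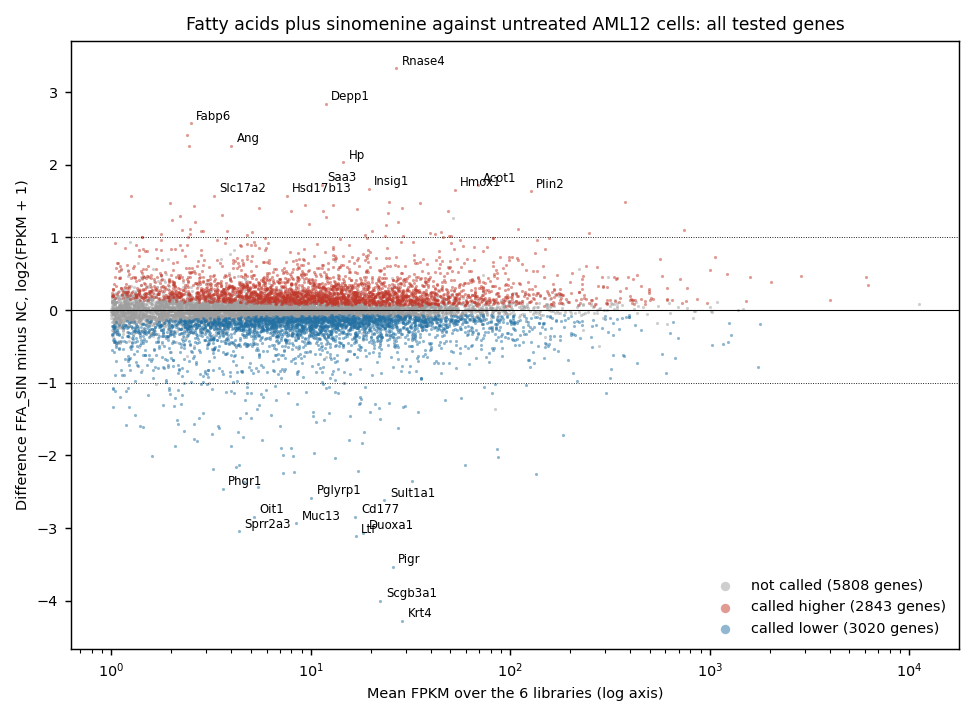
Fitted difference between FFA_SIN and NC on the log2(FPKM + 1) scale (vertical axis) against mean FPKM over the 6 libraries (horizontal log axis) for the 11671 tested genes; red genes were called higher, blue genes lower, grey genes were not called, and dotted lines mark 2-fold. The named genes are the 12 highest and 12 lowest by the naming rule; the lower side reaches -4.28 (Krt4) and the upper side 3.33 (Rnase4).

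The gene with the highest fitted difference on the log2(FPKM + 1) scale was Rnase4, which encodes a secreted ribonuclease. Rnase4 stood at 4.21, 3.83 and 4.15 FPKM in the NC libraries and 50.2, 49.2 and 49.9 FPKM in the FFA_SIN libraries. All 3 FFA_SIN libraries were far above every NC library. The ratio of means was 12.2-fold, and the fitted log2 difference was 3.33 ± 0.034 (SE, n = 3 libraries a group; limma adjusted p = 7.97e-09). Ang, the gene of angiogenin that shares promoters and first exons with Rnase4, went from 0.722 ± 0.143 to 7.25 ± 0.612 FPKM (SD, n = 3). The sources used here do not say how reads of this overlapping pair were split, and their separate values are uncertain. Depp1, a target of FOXO factors that bears on autophagy, stood at 1.98, 2.0 and 2.50 FPKM in the NC libraries and 21.0, 21.3 and 22.4 FPKM in the FFA_SIN libraries. Its groups were wide apart, with a ratio of 9.97-fold and a fitted difference of 2.84 ± 0.065 (limma adjusted p = 1.32e-07).

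Fabp6, which encodes a bile acid-binding protein best known from the ileum, was at 0 in every NC library. It stood at 6.40, 4.11 and 4.50 FPKM in the FFA_SIN libraries. With the floor set at 3 reads in a library, which for this transcript is at most 0.106 FPKM, it was at least 47.0-fold higher in FFA_SIN. Nr0b2, the repressor SHP of bile acid synthesis, is like Fabp6 a known target of the bile acid receptor FXR. Nr0b2 went from 0.131 ± 0.0377 to 2.38 ± 0.272 FPKM, with no overlap and a fitted difference of 1.58 ± 0.076. By ratio of means both Fabp6 and Nr0b2 (18.2-fold) rose more than Rnase4. Nr1h4, the gene of FXR itself, was not called, and its log2 difference had a 95% interval of -0.14 to 0.02. Of the 8 tested genes of the bile acid and FXR list, 3 rose and 3 fell, the third riser being the sterol hydroxylase Cyp27a1 (0.15). The call of Cyp27a1 was lost with no filter and without NC replicate 1, NC replicate 2, FFA_SIN replicate 2 or FFA_SIN replicate 3, at limma adjusted p from 0.0612 to 0.083. The basolateral exporters Abcc3 (-0.51) and Abcc4 (-0.26) and the bile acid-conjugating enzyme Baat (-0.45) fell.

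The gene with the lowest fitted difference on the log2(FPKM + 1) scale was Krt4, a keratin of squamous epithelia that do not cornify. Krt4 stood at 55.4, 55.3 and 56.5 FPKM in the NC libraries and 1.87, 2.21 and 1.72 FPKM in the FFA_SIN libraries. The NC libraries lay far above the FFA_SIN libraries, by 28.8-fold on average, with a fitted difference of -4.28 ± 0.058 (limma adjusted p = 1.74e-08). Pigr, the receptor that carries immunoglobulin A across epithelia, stood at 47.7, 49.3 and 47.9 FPKM in the NC libraries and 3.15, 3.37 and 3.29 FPKM in the FFA_SIN libraries. Pigr had the smallest adjusted p of all genes, 5.19e-09, and a fitted difference of -3.53 ± 0.029. The secretoglobin gene Scgb3a1 fell from 42.9 ± 2.73 to 1.79 ± 0.635 FPKM, and Ltf, the iron-binding lactotransferrin, from 30.9 ± 0.287 to 2.70 ± 0.301 FPKM.

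**Figure D2:**
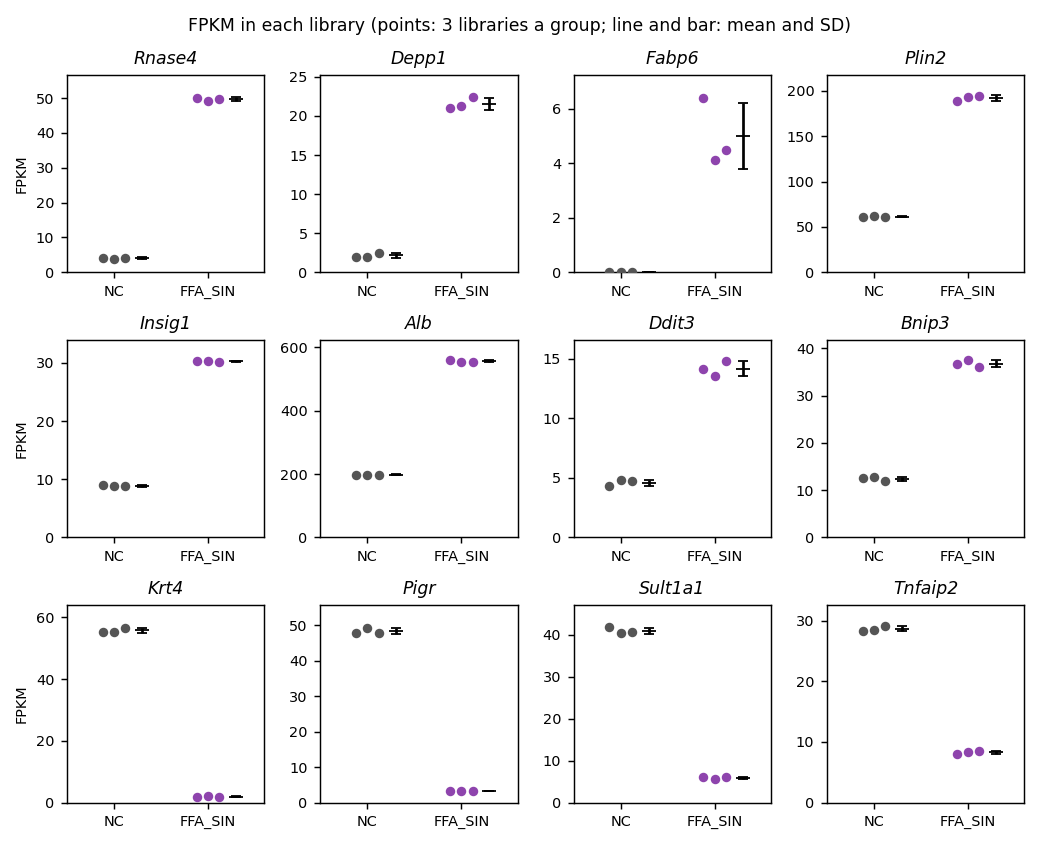
FPKM (vertical axes, each from 0) of 12 genes in the 3 NC and 3 FFA_SIN libraries; points are libraries, and the line and bar beside them are the mean and SD of the group. No gene shown has overlapping groups: Rnase4, Depp1, Fabp6, Plin2, Insig1, Alb, Ddit3 and Bnip3 were higher in FFA_SIN, and Krt4, Pigr, Sult1a1 and Tnfaip2 were lower.

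The gene lists described below were put together with earlier results of these data known. Their counts are a description, to be read against 24.4% of all tested genes called higher, 25.9% called lower and a median log2 difference of -0.01 over all tested genes. Genes that the filter removed are not in these counts. Where no FPKM is written, the value beside a gene is its fitted log2 difference, FFA_SIN minus NC, and a 95% interval is the interval of that difference with no adjustment for the number of genes.

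**Figure D3:**
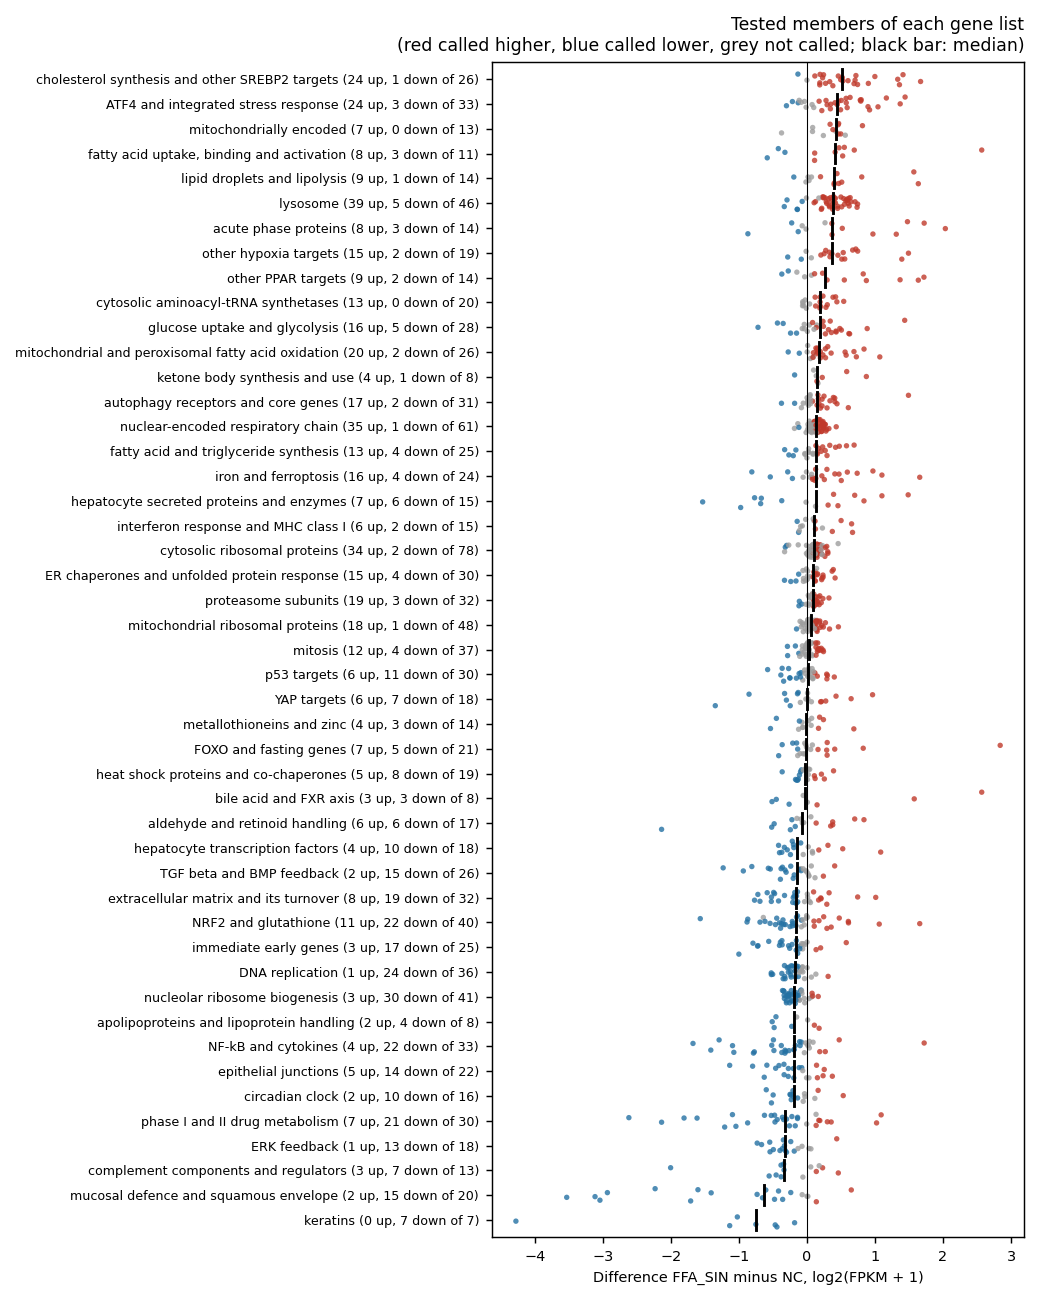
Fitted log2(FPKM + 1) difference between FFA_SIN and NC (horizontal axis) of every tested member of 47 gene lists, ordered by the list's median (black bar); red members were called higher, blue lower and grey not called, and each label gives the counts. Cholesterol synthesis lies at the top with a median of 0.51 and the keratins at the bottom with -0.75.

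Genes of fatty acid handling were mostly higher in FFA_SIN. Of 26 tested genes of mitochondrial and peroxisomal oxidation, 20 rose and 2 fell, with a median log2 difference of 0.18. Cpt1a, which encodes the carnitine transferase that admits long-chain fatty acids to mitochondria, stood at 37.1, 37.6 and 37.0 FPKM in the NC libraries and 68.1, 67.2 and 66.5 FPKM in the FFA_SIN libraries. Its groups lay well apart, with a ratio of 1.81-fold and a fitted difference of 0.84 ± 0.02 (limma adjusted p = 1.79e-07). Crot, which makes carnitine esters for export from peroxisomes, rose by 1.07, the most in the list. The long-chain dehydrogenase Acadl rose by 0.73, the terminal thiolase Acaa2 by 0.69, and Slc25a20, the carnitine carrier of the inner membrane, by 0.56. Abcd3, a peroxisomal importer (-0.28), and the isomerase Eci1 (-0.11) fell. The call of Eci1 was lost with no filter and without NC replicate 1, NC replicate 3, FFA_SIN replicate 2 or FFA_SIN replicate 3, at limma adjusted p from 0.0593 to 0.0727. The bifunctional enzyme Ehhadh was not called, with an interval of -0.19 to 0.21.

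Among 14 tested further PPAR targets, 9 rose and 2 fell. Plin2, the coat protein of lipid droplets in liver, stood at 61.2, 61.5 and 60.9 FPKM in the NC libraries and 189, 193 and 195 FPKM in the FFA_SIN libraries. All 3 FFA_SIN libraries were far above the NC libraries, by 3.14-fold on average, and the fitted difference was 1.64 ± 0.02 (limma adjusted p = 1.31e-08). Acot1, a cytosolic enzyme that splits acyl-CoA, went from 31.6 ± 0.921 to 106 ± 2.74 FPKM, and its mitochondrial relative Acot2 from 4.01 ± 0.239 to 11.9 ± 0.331 FPKM. Acot1 and Acot2 are close copies, so reads may have been shared between them. The coactivator gene Ppargc1a rose by 0.83 from a low level (1.0 to 2.55 FPKM). Angptl4, an inhibitor of lipoprotein lipase, rose by 0.23. Ppara was below the filter in these cells, at 0.544 FPKM in NC and 0.350 FPKM in FFA_SIN on average. Pdk4 and Fgf21, known PPAR alpha targets in liver, were at 0 in NC and averaged 0.00915 and 0.0762 FPKM in FFA_SIN.

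Lipid droplet genes beyond Plin2 were also mostly higher, and of 14 tested in that list 9 rose and 1 fell. Hsd17b13, a droplet enzyme of hepatocytes, went from 3.32 ± 0.0697 to 11.8 ± 0.175 FPKM. Hilpda, an inhibitor of the triglyceride lipase ATGL, rose by 0.80, G0s2, another ATGL inhibitor, by 0.44, and Abhd5, the ATGL activator, by 0.47. Pnpla2, the ATGL gene, was not called, at 38.2 to 37.8 FPKM, with a 95% interval of -0.10 to 0.07. Of 11 tested genes of uptake, binding and activation, 8 rose and 3 fell. The scavenger receptor gene Cd36, a fatty acid importer, rose from 1.98 ± 0.124 to 3.82 ± 0.167 FPKM, and the acyl-CoA synthetases Acsl3 (0.52) and Acsl4 (0.47) rose as well. The fallers were the binding protein gene Fabp5 (-0.58), the caveolar coat gene Cav1 (-0.42) and the synthetase Acsl5 (-0.32).

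Sterol synthesis was the list with the largest median. Of 26 tested genes of cholesterol synthesis and other SREBP2 targets, 24 rose and 1 fell, with a median log2 difference of 0.51 and a range from -0.133 to 1.67. Insig1, whose protein holds SREBP in the endoplasmic reticulum and which is itself an SREBP target, stood at 8.98, 8.79 and 8.76 FPKM in the NC libraries and 30.3, 30.4 and 30.2 FPKM in the FFA_SIN libraries. Its libraries barely differed within a group, and the fitted difference was 1.67 ± 0.023 (limma adjusted p = 1.74e-08). Cyp51, the lanosterol demethylase, rose by 1.41. Fdps, which makes farnesyl diphosphate, went from 26.9 ± 0.729 to 70.5 ± 0.600 FPKM, a ratio of 2.62-fold. Nsdhl, a sterol dehydrogenase, went from 13.4 ± 0.211 to 35.2 ± 0.119 FPKM, and the methyl sterol oxidase Msmo1 from 12.4 ± 0.0463 to 25.8 ± 0.133 FPKM. Srebf2, the gene of SREBP2, averaged 91.6 FPKM in NC and 91.6 FPKM in FFA_SIN and was not called, with an interval of -0.06 to 0.06. Scap, the SREBP escort, was the 1 member called lower (-0.13). Its call was lost with no filter and when any library except NC replicate 1 was left out, at limma adjusted p from 0.0509 to 0.0854. The SREBP element in a form of 10 letters, searched on either strand of RefSeq GRCm38.p6 promoter windows, was in 0 of the 18 tested list members that have a window, of which 16 rose and 1 fell. It was in 0.180% of all tested genes that have a window, and no match says only that these letters are not in the window.

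Genes of fatty acid and triglyceride synthesis had a median of 0.13, and of 25 tested 13 rose and 4 fell. The desaturase gene Fads1 rose by 0.58, the phosphatidate phosphatase Lpin2 by 0.69, Scd2 by 0.47 and Dgat2, which makes the last bond of triglycerides, by 0.42. Scd1, the stearoyl-CoA desaturase of liver, went from 170.3 ± 2.75 to 197 ± 2.09 FPKM. Fasn, the fatty acid synthase gene, went from 48.3 to 47.3 FPKM on average without a call, and its interval was -0.09 to 0.03. Srebf1 rose by 0.13. The acyltransferases Gpat4 (-0.33) and Agpat2 (-0.27) fell. Among 8 tested apolipoprotein and lipoprotein genes 2 rose and 4 fell. Clu (-0.48), Apoc1 (-0.51), Apoa1 (-0.46) and the receptor gene Lrp1 (-0.22) were the fallers, and Apob rose by 0.11 (limma adjusted p = 0.0194), a call that 4 of the 6 fits leaving out 1 library did not keep. Of 8 tested ketone genes 4 rose and 1 fell, among them Slc16a1, a transporter of lactate and ketone bodies (0.58).

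Most genes of the ATF4 list were higher. Of 33 tested genes, 24 rose and 3 fell, with a median of 0.45. Ddit3, which encodes the stress factor CHOP, stood at 4.30, 4.79 and 4.70 FPKM in the NC libraries and 14.1, 13.6 and 14.9 FPKM in the FFA_SIN libraries. Every FFA_SIN library was above every NC library, by 3.09-fold on average. The fitted difference was 1.44 ± 0.046 (limma adjusted p = 6.56e-07). Chac1, a glutathione-degrading enzyme, rose by 1.37, the pseudokinase gene Trib3 from 14.4 ± 0.817 to 33.5 ± 0.647 FPKM, and Atf5 by 1.04. Asns, which makes asparagine, stood at 34.5, 34.4 and 34.6 FPKM in the NC libraries and 65.3, 65.3 and 67.7 FPKM in the FFA_SIN libraries. Its groups were apart, with a fitted difference of 0.92 ± 0.022. Of the serine pathway, Phgdh rose by 0.50, Psat1 by 0.63 and Psph by 0.80. Slc3a2, the shared heavy chain of amino acid exchangers, went from 96.8 ± 1.38 to 168 ± 2.65 FPKM. Atf4 mRNA itself rose by 0.22. The cystine exchanger gene Slc7a11 (-0.21), the secreted factor gene Gdf15 (-0.30) and Cebpg (-0.13), all of them known ATF4 targets or partners, fell. The call of Cebpg was lost with no filter and without NC replicate 1, NC replicate 2, FFA_SIN replicate 2 or FFA_SIN replicate 3, at limma adjusted p from 0.0841 to 0.102.

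The composite element bound by ATF4 with C/EBP proteins was searched as TGATGNAA on either strand in RefSeq promoter windows of build GRCm38.p6, which run from 250 bases before to 50 bases after a gene start. It was in 9 of the 29 tested ATF4-list genes that have a window (31.0%) and in 2.61% of all tested genes that have one. A gene was counted when any of its windows matched. Over all windows of the RefSeq set, which also covers genes not tested here, the share was 3.97% of windows. Of the genes with a match, 7 rose and 1 fell, and of the 20 without one 13 rose and 2 fell. The median log2 differences were 0.58 and 0.38. A match describes the letters and is not evidence of binding. A window was eligible for display when a match lay wholly within the 250 bases before the start, and 1 chromosome was left out. Not every gene with a match had an eligible window. The 4 genes shown have the smallest adjusted p among eligible ones, and may not have the smallest among all genes with a match. They are written 5′ to 3′ on the strand of the gene, with the matched letters in capitals (TTNCATCA is the element read on the other strand). Asns lies at chr6:7693210-7693329 (minus strand), Chac1 at chr2:119350993-119351112 (plus strand), Atf3 at chr1:191183380-191183499 (minus strand) and Nupr1 at chr7:126625517-126625636 (minus strand).
Asns: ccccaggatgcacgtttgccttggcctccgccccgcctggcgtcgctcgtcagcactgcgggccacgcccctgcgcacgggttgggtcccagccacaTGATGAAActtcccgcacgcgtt
Chac1: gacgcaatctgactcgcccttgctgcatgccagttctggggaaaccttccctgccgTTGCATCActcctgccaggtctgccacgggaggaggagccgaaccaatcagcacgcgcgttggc
Atf3: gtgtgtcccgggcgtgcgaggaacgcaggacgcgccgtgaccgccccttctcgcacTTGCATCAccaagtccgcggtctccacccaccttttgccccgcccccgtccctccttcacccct
Nupr1: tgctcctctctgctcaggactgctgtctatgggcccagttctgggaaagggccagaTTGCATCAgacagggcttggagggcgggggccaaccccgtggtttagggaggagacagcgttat
Besides Asns and Chac1, the stress factor gene Atf3 rose by 0.58 and the stress protein gene Nupr1 by 0.90.

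Cytosolic tRNA synthetases, which charge tRNAs and many of which are ATF4 targets, rose in 13 of 20 cases and fell in none. The largest rises were those of Sars (0.54), Aars (0.44), Cars (0.42) and Nars (0.38). Endoplasmic reticulum genes changed little, with a median of 0.10 over 30 tested, of which 15 rose and 4 fell. Hspa5, the main chaperone of that compartment, went from 228 ± 2.10 to 254 ± 1.39 FPKM, and Dnajc3, an inhibitor of the kinase PERK, rose by 0.41. Xbp1, the factor activated by IRE1 splicing, fell by 0.33, and FPKM per gene do not separate its spliced form. Of 19 tested heat shock genes 5 rose and 8 fell, with log2 differences from -0.365 to 0.390 over the list.

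Lysosomal genes were mostly higher. Of 46 tested, 39 rose and 5 fell, so that 84.8% were called higher, with a median of 0.37. Grn, which encodes progranulin, stood at 74.2, 76.2 and 77.4 FPKM in the NC libraries and 126, 128 and 127 FPKM in the FFA_SIN libraries. Its groups did not overlap, and the fitted difference was 0.74 ± 0.023 (limma adjusted p = 5.25e-07). Rises were found among hydrolases, with the hexosaminidase subunit Hexa (0.63), the sialidase Neu1 (0.65) and the protease Lgmn (0.54). They were found among membrane proteins as well, with Lamp2 (0.58), Lamp1 (0.45) and the calcium channel Mcoln1 (0.62). Of the proton pump, Atp6v0d1 rose by 0.71 and Atp6v1a by 0.42. The fallers included the glycosidases Naglu (-0.33) and Glb1 (-0.14). Of 31 tested autophagy genes 17 rose and 2 fell. Sqstm1, the receptor p62, went from 189.8 ± 0.451 to 289.8 ± 5.65 FPKM, and the LC3 family genes Map1lc3b (0.44), Gabarapl1 (0.41) and Gabarap (0.39) rose, while Tfeb fell by 0.18. The call of Tfeb was lost with no filter and without NC replicate 2, NC replicate 3, FFA_SIN replicate 1 or FFA_SIN replicate 2, at limma adjusted p from 0.0657 to 0.0812.

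TFEB and its relatives bind a palindromic element known as CLEAR, whose core TCACGTG was searched on either strand in the same RefSeq GRCm38.p6 windows. It was in 11 of 33 tested lysosomal genes with a window (33.3%) and in 7.28% of all tested genes with a window. Over all windows of the RefSeq set, which also covers genes not tested here, the share was 3.77% of windows. Of the lysosomal genes with a match 9 rose and 2 fell, with a median log2 difference of 0.50. Of the 22 without one 19 rose and 1 fell, with a median of 0.36. The 4 with the smallest adjusted p among those with an eligible window, by the rule given for the ATF4 list, are shown in the same way. Here too, not every gene with a match had an eligible window. Lgmn lies at chr12:102439093-102439212 (minus strand), Lamp1 at chr8:13159041-13159160 (plus strand), Gla at chrX:134601137-134601255 (minus strand) and Mcoln1 at chr8:3500399-3500518 (plus strand).
Lgmn: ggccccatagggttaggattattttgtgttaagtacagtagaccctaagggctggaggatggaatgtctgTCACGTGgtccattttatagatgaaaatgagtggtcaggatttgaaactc
Lamp1: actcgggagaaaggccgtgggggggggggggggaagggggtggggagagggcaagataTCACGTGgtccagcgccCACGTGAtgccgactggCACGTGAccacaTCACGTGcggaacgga
Gla: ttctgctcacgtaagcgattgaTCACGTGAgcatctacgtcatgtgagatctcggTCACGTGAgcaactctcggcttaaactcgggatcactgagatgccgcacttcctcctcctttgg
Mcoln1: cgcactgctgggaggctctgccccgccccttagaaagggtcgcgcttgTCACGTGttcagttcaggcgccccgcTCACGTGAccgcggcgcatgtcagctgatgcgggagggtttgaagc
Lamp1, the abundant glycoprotein of the lysosomal membrane, holds 4 separate matches within its window and rose by 0.45. Where matches on both strands overlap, the capitals run to 8 letters, as in Gla, the galactosidase gene, which rose by 0.57.

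**Figure D4:**
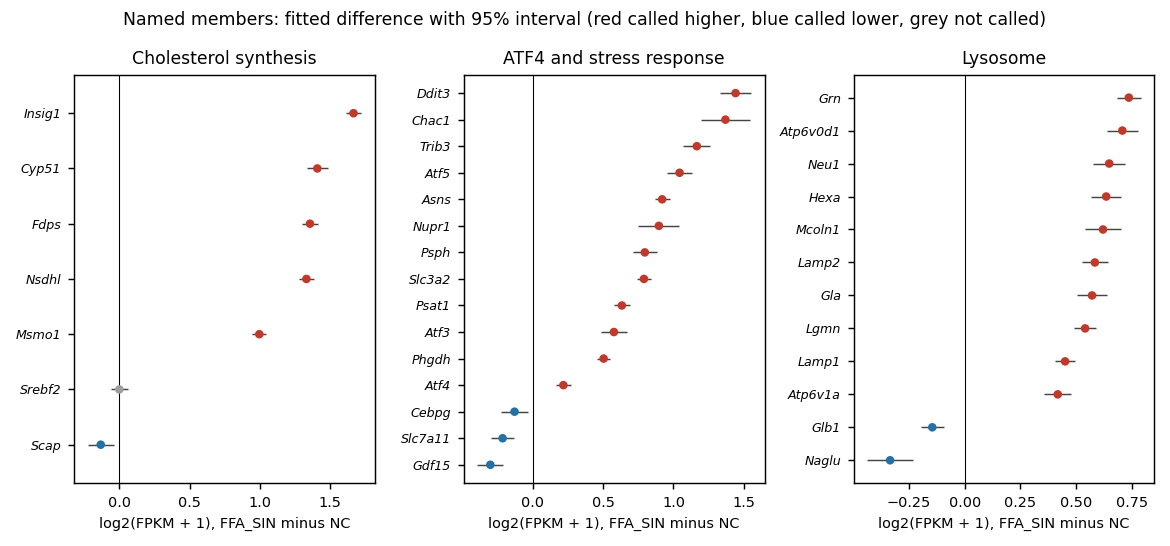
Fitted log2(FPKM + 1) difference between FFA_SIN and NC (horizontal axes) with its 95% interval for the members of the cholesterol, ATF4 and lysosome lists named in the text; red members were called higher, blue lower and grey not called. In the cholesterol panel Insig1 lies highest, at 1.67, and among the members shown there Scap alone was called lower.

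Hypoxia targets rose in 15 of 19 tested genes and fell in 2. Bnip3, a mitophagy receptor induced by low oxygen, stood at 12.6, 12.8 and 12 FPKM in the NC libraries and 36.7, 37.5 and 36.1 FPKM in the FFA_SIN libraries. All FFA_SIN libraries were above all NC libraries, by 2.96-fold on average, and the fitted difference was 1.49 ± 0.031 (limma adjusted p = 7.62e-08). Ero1l, an oxidase of protein folding, rose by 1.39, Ndrg1 by 0.67, and Vegfa, the vessel growth factor, by 0.51. Hif1a mRNA was not called, with an interval of -0.02 to 0.15. Of 28 tested glucose uptake and glycolysis genes 16 rose and 5 fell. The enolase gene Eno2 rose from 0.939 ± 0.0927 to 4.24 ± 0.222 FPKM, the phosphofructokinase Pfkp by 0.88, and Pdk1, which inhibits pyruvate dehydrogenase, by 0.62. Pcx, the pyruvate carboxylase (-0.72), and the hepatic glucose transporter Slc2a2 (-0.43) fell. The transporter gene Slc2a1 was not called, with an interval of -0.13 to -0.01.

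Respiratory chain genes of the nucleus rose in 35 of 61 cases and fell in 1, by small amounts with a median of 0.13. Atp5b, a subunit of ATP synthase, went from 253 ± 2.80 to 283 ± 2.0 FPKM, a log2 difference of 0.16 ± 0.019. Of the 13 mitochondrially encoded genes, 7 were called higher and none lower, among them mt-Nd4 (0.46) and mt-Cytb (0.46). With no filter the rises numbered 4, and mt-Cytb was not among them (limma adjusted p = 0.106). Cytosolic ribosomal protein genes had a median of 0.10, and of 78 tested 34 rose and 2 fell. That count of rises was 9 with no filter, 21 with no variance trend, 18 without FFA_SIN replicate 1 and 20 without FFA_SIN replicate 3. Many of these genes have processed pseudogenes that may take reads. Genes of nucleolar ribosome assembly were mostly lower, with a median of -0.18, and of 41 tested 3 rose and 30 fell. The helicase gene Ddx21 (-0.34) and Nop56, of the box C/D particle that modifies ribosomal RNA (-0.28), were among those that fell. Of 48 mitochondrial ribosomal protein genes 18 rose and 1 fell, led by Mrps6 (0.46), and the rises numbered 10 with no filter and 11 without NC replicate 2. Of 32 proteasome genes 19 rose and 3 fell, led by Psmd8 (0.32), and the rises numbered 10 with no filter, 10 without FFA_SIN replicate 1 and 12 without NC replicate 2, FFA_SIN replicate 2 or FFA_SIN replicate 3. The falls numbered 1 without NC replicate 1 or FFA_SIN replicate 2.

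The plasma proteins that hepatocytes secrete moved in both directions. Alb, the albumin gene, stood at 198, 196 and 198 FPKM in the NC libraries and 559, 554 and 553 FPKM in the FFA_SIN libraries. The groups were apart by 2.81-fold, with little spread within either, and the fitted difference was 1.49 ± 0.018 (limma adjusted p = 1.31e-08). Trf, the iron carrier transferrin, went from 474 ± 0.384 to 1019 ± 5.88 FPKM, the retinol carrier Rbp4 from 107 ± 3.41 to 191 ± 4.06 FPKM and Ttr, its partner, from 429 ± 10.5 to 697 ± 8.45 FPKM. Ambp, which encodes the alpha-1-microglobulin precursor, fell from 16.3 ± 0.257 to 4.97 ± 0.205 FPKM, and Igfbp4, a binder of insulin-like growth factors, from 288 ± 5.06 to 146 ± 3.83 FPKM. Vtn, the adhesion protein vitronectin, fell as well (-0.67). Among 15 tested genes of that list, 7 rose and 6 fell. Of 14 tested acute phase genes 8 rose and 3 fell. Hp, haptoglobin, stood at 5.02, 4.98 and 5.36 FPKM in the NC libraries and 23.4, 23.9 and 24.8 FPKM in the FFA_SIN libraries. All FFA_SIN libraries exceeded all NC libraries, by 4.69-fold on average, with a fitted difference of 2.03 ± 0.036. Saa3, a serum amyloid A, went from 4.75 ± 0.604 to 17.9 ± 0.289 FPKM, the fibrinogen chains Fga and Fgb rose by 1.48 and 1.31, and ceruloplasmin, Cp, went from 92.2 ± 0.868 to 181 ± 5.14 FPKM. Il1rn, the blocker of the interleukin 1 receptor, fell by 0.87, and Lcn2 was not called, with an interval of -0.14 to -0.0014.

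Iron genes rose in 16 of 24 tested cases and fell in 4. Hmox1, the haem-degrading enzyme, stood at 24.0, 25.9 and 24.8 FPKM in the NC libraries and 77.8, 79.4 and 84.9 FPKM in the FFA_SIN libraries. Its groups were apart by 3.24-fold with a fitted difference of 1.66 ± 0.041 (limma adjusted p = 2.02e-07). The ferritin light chain gene Ftl1 went from 798 ± 2.57 to 1331 ± 33.5 FPKM, and the iron exporter Slc40a1 rose by 0.59. The ferritin heavy chain gene Fth1 was not called, with -0.07 to 0.05, and the transferrin receptor Tfrc fell by 0.28. Of 13 tested complement genes 3 rose and 7 fell. C2 (-0.56), C1s1 (-0.38) and C1ra (-0.38) fell, while C3 rose by 0.14.

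Hepatocyte transcription factors were more often lower than higher, and of 18 tested 4 rose and 10 fell. Hnf4a, the master factor of hepatocyte genes, went from 131 ± 0.556 to 104 ± 1.16 FPKM, with a fitted difference of -0.33 ± 0.019. Cebpa (-0.40), the xenobiotic receptor PXR gene Nr1i2 (-0.42) and Rxra, the shared partner of nuclear receptors (-0.37), fell too. Sox9, a factor of bile duct and progenitor cells, went the other way from 12.6 ± 0.892 to 27.9 ± 1.04 FPKM, while the bile duct markers Krt7 (-1.02), Krt19 (-0.47) and Aqp1 (-0.68) fell. Of the 6 tested bile duct markers 2 rose, Sox9 among them, and 3 fell. In a bulk library, fewer cells of a kind and less RNA per cell cannot be told apart.

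Drug metabolism genes fell in 21 of 30 tested cases and rose in 7, with a median of -0.32. Sult1a1, which sulfates phenols, stood at 41.8, 40.4 and 40.6 FPKM in the NC libraries and 5.99, 5.55 and 5.99 FPKM in the FFA_SIN libraries. The groups were wide apart, and the fitted difference was -2.62 ± 0.034 (limma adjusted p = 1.58e-08). Aldh3a1, which oxidises aldehydes, went from 97.8 ± 2.99 to 21.5 ± 1.04 FPKM, and the cytochromes Cyp2b10 (-1.81), Cyp2d26 (-1.62) and Cyp2s1 (-1.21) fell. The Cyp2d genes are close copies, and reads may be split among them. Adh1 (1.09) and Adh7 (1.02), alcohol dehydrogenases, rose. Of 17 tested genes of aldehyde and retinoid handling 6 rose and 6 fell, with Aldh2 among the fallers (-0.48).

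In the NRF2 and glutathione list 11 rose and 22 fell of 40 tested, with a median of -0.16. Beside Hmox1, the riser Osgin1, an oxidative stress response gene, went from 161 ± 3.60 to 337 ± 6.08 FPKM, and catalase, Cat, rose by 0.47. The glutathione transferases that fell included Gstm3 (-1.57), Gsta2 (-0.88), Gstm1 (-0.87) and Gstm2 (-0.69), all members of families whose reads may be shared. Glutathione synthesis fell at Gss (-0.54) and at the catalytic subunit Gclc (-0.37), while the modifier subunit Gclm was not called, with -0.09 to 0.0041. Nfe2l2, the gene of NRF2, was not called, with -0.05 to 0.04, and Nqo1 was below the filter at 0.721 and 0.791 FPKM on average in NC and FFA_SIN. The antioxidant element TGACNNNGC, on either strand, was in 12 of 34 of these genes that have a promoter window (35.3%), of which 2 rose and 6 fell. It was in 17.1% of all tested genes that have a window. Of the 22 without it 7 rose and 12 fell.

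NF-kB targets and cytokine genes fell in 22 of 33 tested cases and rose in 4. Tnfaip2, a target of tumour necrosis factor signalling, stood at 28.3, 28.5 and 29.1 FPKM in the NC libraries and 8.03, 8.31 and 8.51 FPKM in the FFA_SIN libraries. The NC libraries were above the FFA_SIN libraries by 3.46-fold on average, and the fitted difference was -1.67 ± 0.028 (limma adjusted p = 4.25e-08). Ptgs2, the inducible prostaglandin synthase COX-2, stood at 12.5, 12.4 and 12.6 FPKM in the NC libraries and 4.67, 4.63 and 4.21 FPKM in the FFA_SIN libraries. Its groups did not overlap, with a fitted difference of -1.29 ± 0.039. Nos2, the inducible nitric oxide synthase, went from 16.4 ± 0.525 to 7.28 ± 0.134 FPKM, and Tnf, the gene of tumour necrosis factor, from 3.02 ± 0.379 to 0.879 ± 0.108 FPKM. The chemokines Cx3cl1 (-1.41), Cxcl5 (-0.79) and Cxcl1 (-0.49) fell, as did the NF-kB regulators Nfkbiz (-0.77), Nfkbia (-0.37) and Tnfaip3 (-0.32). The largest rise in the list was that of Saa3 (1.72), given above with the acute phase genes. Ccl2, the monocyte attractant, also went up, from 451 ± 20.1 to 543 ± 13.8 FPKM with a fitted difference of 0.27 ± 0.037. Il6 averaged 0.0388 FPKM in NC and 0.0143 FPKM in FFA_SIN, below the filter. Of 15 tested interferon and MHC class I genes 6 rose and 2 fell, among them Ifit2 (0.67), Stat2 (0.66) and H2-K1 (0.50).

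**Figure D5:**
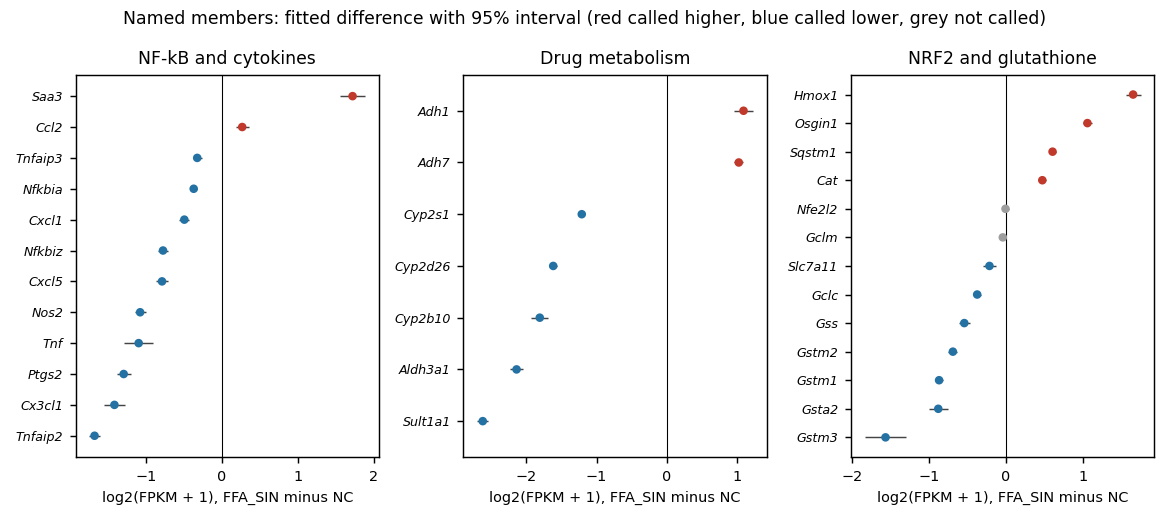
Fitted log2(FPKM + 1) difference between FFA_SIN and NC (horizontal axes) with its 95% interval for the members of the NF-kB, drug metabolism and NRF2 lists named in the text; red members were called higher, blue lower and grey not called. Saa3 and Hmox1 lie at the top of their panels, at 1.72 and 1.66, and Tnfaip2, Sult1a1 and Gstm3 at the bottom of theirs, at -1.67, -2.62 and -1.57.

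All 7 tested keratins fell. After Krt4, the largest differences were those of Krt20, a keratin of gut epithelium, which stood at 418, 407 and 417 FPKM in the NC libraries and 187, 187 and 189 FPKM in the FFA_SIN libraries, and of Krt7 (-1.02). The Krt20 groups were apart by 2.20-fold. Krt8 and Krt18, the keratin pair of hepatocytes, fell too, with fitted differences of -0.44 and -0.18. Of 20 tested genes of mucosal defence and the squamous envelope, 2 rose and 15 fell. Besides Pigr and Ltf, the mucin gene Muc13 fell from 15.8 ± 0.182 to 1.20 ± 0.136 FPKM, and the envelope gene Sprr2a3 from 8.58 ± 0.534 to 0.162 ± 0.0521 FPKM, by ratio of means a larger fall (52.8-fold) than that of Krt4. S100a9, a subunit of calprotectin (-2.23), and Ceacam1, an adhesion protein of epithelia (-1.71), fell as well. Sprr2a genes are near-identical copies, so the value of Sprr2a3 may hold reads of the others. Slpi, a protease inhibitor of mucosal secretions, rose by 0.65. By the naming rule the largest falls also took in the dual oxidase maturation gene Duoxa1 (33.6 ± 1.11 to 3.15 ± 0.325 FPKM), Cd177, a glycoprotein known from neutrophils (30.2 ± 0.678 to 3.34 ± 0.0798 FPKM), the peptidoglycan-binding Pglyrp1 (17.9 ± 0.825 to 2.16 ± 0.211 FPKM), Oit1 (9.90 ± 0.178 to 0.516 ± 0.0542 FPKM) and Phgr1 (6.81 ± 0.618 to 0.435 ± 0.254 FPKM).

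Junction genes fell in 14 of 22 tested cases and rose in 5. Gjb1, the gap junction protein connexin 32 of hepatocytes, stood at 111, 112 and 113 FPKM in the NC libraries and 50.8, 49.5 and 50.9 FPKM in the FFA_SIN libraries. All NC libraries were above all FFA_SIN libraries, by 2.22-fold on average, and the fitted difference was -1.14 ± 0.021 (limma adjusted p = 4.35e-08). The cadherin gene Cdh17 (-0.80), the tight junction scaffold Tjp1 (-0.59) and Cdh1, the gene of E-cadherin (-0.41), fell as well. Of 32 tested matrix genes 8 rose and 19 fell. Fibronectin, Fn1, went from 36.6 ± 1.31 to 21.0 ± 0.334 FPKM, and the laminin chain Lamb3 (-0.72) and the protease inhibitor Timp2 (-0.69) fell.

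Feedback genes of TGF beta and BMP signalling fell in 15 of 26 tested cases and rose in 2. Id3, an inhibitor of basic helix-loop-helix factors and a BMP target, stood at 66.9, 64.1 and 68.5 FPKM in the NC libraries and 26.5, 28.2 and 28.6 FPKM in the FFA_SIN libraries. The groups did not overlap, with a fitted difference of -1.23 ± 0.037 (limma adjusted p = 4.35e-07). Id1 fell from 407 ± 16.3 to 232 ± 3.93 FPKM, and Id2 (-0.57), Atoh8 (-0.94) and the inhibitory Smad7 (-0.54) fell as well. The receptor genes Tgfbr1 and Tgfbr2 were not called, with 95% intervals of -0.05 to 0.08 and -0.12 to 0.01. Of 18 tested YAP targets 6 rose and 7 fell, with Ccn2 up by 0.96 and the tissue factor gene F3 down (-1.35).

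Immediate early genes fell in 17 of 25 tested cases and rose in 3. Egr1, a growth factor-induced transcription factor, stood at 18.9, 21.1 and 19.8 FPKM in the NC libraries and 9.53, 9.27 and 9.59 FPKM in the FFA_SIN libraries. Every NC library was above every FFA_SIN library, with a fitted difference of -1.0 ± 0.041. Myc, a driver of growth and ribosome production, went from 57.6 ± 0.524 to 34.4 ± 1.13 FPKM, and the AP-1 members Fos (-0.79) and Fosl1 (-0.72) fell. Of 18 tested ERK feedback genes 1 rose and 13 fell. The cyclin gene Ccnd1 went from 161 ± 2.86 to 114 ± 1.67 FPKM. The receptor gene Epha2 (-0.73), the EGF receptor ligands Hbegf (-0.67) and Areg (-0.54), and the ERK phosphatase gene Dusp6 (-0.36) fell.

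DNA replication genes fell in 24 of 36 cases, with a median of -0.17. The falls with the smallest adjusted p were those of the licensing factor Cdc6 (-0.50), the helicase subunits Mcm4 (-0.37) and Mcm5 (-0.33) and Uhrf1 (-0.35). Mitosis genes had a median of 0.03, and of 37 tested 12 rose and 4 fell. The proliferation marker Mki67 was not called, with an interval of 0.01 to 0.15. Of 30 tested p53 targets 6 rose and 11 fell. Mdm2, which degrades p53 (-0.38), and Plk2 (-0.58) fell, and the cell cycle inhibitor Cdkn1a was not called, at 62.1 to 63.4 FPKM with an interval of -0.03 to 0.09. Clock genes fell in 10 of 16 cases and rose in 2. Per2 (-0.60) and Dbp (-0.52) fell, Bhlhe40, also a hypoxia target, rose by 0.53, and the time of day of harvest is not stated in the sources used here. Of 21 tested FOXO and fasting genes 7 rose and 5 fell, with Ppargc1a (0.83) the next highest after Depp1. Of 14 tested metallothionein and zinc genes 4 rose and 3 fell, and Mt1 rose by 0.17.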

How the data were processed

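Total RNA of AML12 cells was extracted with a mirVana kit, kept at an RNA integrity number of at least 7 and made into TruSeq stranded libraries, per the labels' protocols. Reads were trimmed with Trimmomatic and aligned with HISAT2 to GRCm39, per the submitters' processing notes; no version, counting tool, annotation or strand setting is named in the sources used here. The authors deposited 1 table of FPKM per gene for 9 libraries, of which 6 were used. Since FPKM are shares of each library, a difference is relative to the rest of the RNA. The unit was read from the values: lengths of GENCODE vM21 gave whole reads within 0.01 for 25985 genes (85.6%) in all 6 libraries. Over genes with at least 20 such reads, libraries of 1 group differed by 6.47 to 8.81 times counting noise (chi-square per degree of freedom) and libraries of different groups by 108 to 121 times, so no library was a copy of another.

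Symbols were matched by gene ID for 28734 genes (94.7%). The fit on log2(FPKM + 1) was made in R 4.3.3 with limma 3.58.1, using its variance trend and no block, for genes averaging 1 FPKM or more, and adjusted p-values by Benjamini-Hochberg over 11671 genes. The script was tested on simulated data. Named genes are the 12 highest and 12 lowest called differences among genes with a true symbol whose higher group averaged 5 FPKM or more and whose groups did not overlap; up to 4 called genes of each list by adjusted p; fixed genes of general interest; and the genes nearest the filter. Further list members illustrate a list, and those outside this rule were picked with their values seen. Some genes that the rule takes are not reported here. Members and lists were chosen with earlier results of these data known. The counting noise and floors cover counting error only. Plots used matplotlib 3.10.9.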

Additional observations from a re-analysis of the deposited data

How the results depend on the processing

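The fit was repeated under 13 alternatives: a pseudocount of 0.1, no filter, a filter of 5 FPKM, median-of-ratios scaling, upper-quartile scaling, no trend, a replicate block and leaving out each library. The called genes numbered 5847, 5573, 4438, 5861, 5837, 5792 and 5919 under the first 7 in that order, and 5001 to 5289 when a library was left out, against 5863. No called gene was called in the opposite direction under any of them. Counts at 2-fold or more moved with 2 settings. With a pseudocount of 0.1 they were 315 (107 higher, 208 lower), and with the filter of 5 FPKM 115 (39 higher, 76 lower), against 195 (62 and 133). Falls outnumbered rises in the main fit, but rises outnumbered falls under median-of-ratios scaling (3067 and 2794), upper-quartile scaling (2984 and 2853) and the filter of 5 FPKM (2227 and 2211), so the balance has no firm direction. Neither scaling moved the median of all genes by over 0.1.

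Same-numbered deviations from the group means correlated at 0.04, -0.0012 and 0.17, and different-numbered ones at -0.16 to 0.12. With 3 libraries a group, these values cannot decide whether the shared replicate numbers pair the libraries. The replicate block called 5919 genes, against 5863 without it. Of 213 named genes with a fitted value, 209 kept direction and call under every alternative in which they were tested. The filter of 5 FPKM leaves out named genes with lower means, such as Fabp6 and Nr0b2. Named genes with the same call numbered 182 under it, against 202 in the main fit. Apob, Mki67, Slc2a1 and mt-Cytb crossed the threshold under at least 1. Of further list members described above, Cebpg, Cyp27a1, Eci1, Scap and Tfeb lost their calls under no filter and when certain libraries were left out. Of the list counts, 1256 stayed within 1.5 times of the main count and 70 did not. Of these, 54 had a main count of at most 4 genes. The other 16 include those given beside the ribosomal and proteasome genes, and mitochondrially encoded rises, which were 4 rather than 7 with no filter. The rest came with the filter of 5 FPKM, which leaves fewer members to test: DNA replication falls were 15 rather than 24, mucosal defence falls 9 rather than 15, acute phase rises 5 rather than 8 and glycolysis falls 2 rather than 5. Of genes at 1 to 5 FPKM 37.4% were called, with a median SE of 0.057, and the part of depth in this was not tested.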

Other observations

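Outside the gene lists, 133 genes were called with a fitted difference of at least 2-fold, and a run of genes known from gut and other secretory epithelia stood among those that fell. These genes were picked after their values had been seen, so they are a description and carry no count or test of a group. Lgals4, a galectin of intestinal epithelium, stood at 228, 212 and 234 FPKM in the NC libraries and 46.9, 46.2 and 44.9 FPKM in the FFA_SIN libraries. Its groups were far apart, with a fitted difference of -2.26 ± 0.038 (limma adjusted p = 4.25e-08). Olfm4, a marker of intestinal crypts, went from 139 ± 3.10 to 33.5 ± 0.291 FPKM, and Itln1, the lectin intelectin 1, from 9.86 ± 0.464 to 0.999 ± 0.0526 FPKM. Genes known from mucus-secreting cells fell too, with Spink4 (12.1 to 2.31 FPKM), Clca1 (8.22 to 2.58 FPKM) and the mucin gene Muc5b (24.9 to 10.3 FPKM). Gabrp, a GABA receptor subunit of epithelia, went from 136 ± 3.63 to 35.4 ± 1.33 FPKM, and Akr1b7, an aldo-keto reductase, from 281 ± 2.40 to 85.1 ± 0.822 FPKM. Mrc1, a mannose receptor best known from macrophages and liver endothelium, fell from 11.8 ± 0.262 to 2.45 ± 0.0780 FPKM.

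Among the rises outside the lists, also picked after their values had been seen, several genes belong to liver metabolism. Cyp39a1, a sterol hydroxylase of bile acid synthesis, stood at 18.9, 18.8 and 19.0 FPKM in the NC libraries and 40.5, 39.4 and 38.0 FPKM in the FFA_SIN libraries. The FFA_SIN libraries were all above the NC libraries, with a fitted difference of 1.02 ± 0.028. Maoa, the monoamine oxidase A gene, went from 33.0 ± 0.624 to 67.9 ± 2.95 FPKM, and Creg1, a glycoprotein of the endosome and lysosome, from 68.7 ± 0.907 to 151 ± 1.38 FPKM. Klb, the beta klotho coreceptor of endocrine fibroblast growth factors, rose from 0.800 ± 0.133 to 3.24 ± 0.139 FPKM. The coagulation factor gene F11 rose from 0.608 ± 0.0692 to 2.25 ± 0.316 FPKM, and Acmsd, an enzyme of tryptophan breakdown, from 1.19 ± 0.165 to 4.05 ± 0.280 FPKM. Slc17a1 (32.4 to 66.3 FPKM) and Slc17a2 (1.15 to 5.39 FPKM), members of a family of organic anion transporters, rose as well.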
